A study of Canis lupus familiaris with 33 samples.

Results

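Lymph node RNA of 16 dogs with treatment naïve diffuse large B cell lymphoma (DLBCL) was compared with lymph node RNA of healthy dogs, on the Affymetrix Canine Genome 2.0 array. The comparison used 26 of the 33 arrays of the study, chosen by their labels: the 16 arrays of dogs sampled before any chemotherapy, 1 per dog, and the 10 arrays of healthy nodes. The 7 arrays of dogs that had relapsed after chemotherapy entered only where they are named. Case numbers in the labels assign 4 of the healthy arrays to 1 animal, called healthy dog 1 here, so that the 10 healthy arrays stood for 7 dogs. Arrays of the same dog were averaged, which left 23 dogs, each a separate animal.

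The naïve dogs had received no previous chemotherapy. They were 8 female and 8 male dogs of several breeds, between 2.7 and 13.3 years old. Their labels name rimadyl or doxycycline as current medication for some dogs, no medication for others, and leave it unavailable for the rest. The healthy nodes came from dogs euthanised for conditions other than lymphoma. Their age, sex, breed and medication were not known here, so that none of these can be told apart from the disease.

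A resting lymph node holds B cells in follicles, T cells and dendritic cells in the zones between them, and a network of stromal cells that lays down the chemokines by which lymphocytes find their place. DLBCL is a tumour of mature B cells that grows as sheets of large dividing cells and effaces this structure. A biopsy is a bulk sample: for every gene described below, fewer cells of a type and less RNA per cell cannot be told apart.

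Values are log2 expression after RMA, a procedure that corrects background, gives all arrays one distribution and summarises the probes of a probeset, so that a difference of 1 is a 2-fold change. Probesets of 17 tag controls, which have no canine target, had means between 2.83 and 4.59, and values around 4 are therefore called near background. The array medians lay between 6.85 and 6.97. Integrity numbers of the RNA were lower in healthy nodes. The number (RIN) was 9.69 ± 0.282 (SD, n = 16) in naïve dogs and 7.11 ± 1.12 (SD, n = 7) in healthy dogs (exact permutation test, two-sided p = 8.2e-06). Healthy dog 1 alone among the healthy dogs reached the naïve range, with 9.15, and the other 6 lay between 5.8 and 7.7. The difference between 3' and 5' control probesets of GAPDH, which grows as RNA breaks, was 2.28 to 3.83 with a median of 3.22 in naïve dogs and 3.49 to 4.75 with a median of 3.76 in healthy dogs. For ACTB it was 6.39 to 7.86 with a median of 7.17 against 7.2 to 9.64 with a median of 7.73. EEF1A1 went the other way, at a median of 5.86 in naïve dogs and 5.5 in healthy dogs. Healthy dog 1 lay among the other healthy dogs by these probesets, at 3.69 for GAPDH and 8.37 for ACTB, the last above every naïve dog. Results were set against RNA integrity in 3 ways: RIN as a covariate, the healthy dogs of RIN 7 or more, and healthy dog 1 alone. The subset of RIN 7 or more narrows the difference in RIN but does not remove it. Apart from healthy dog 1, its dogs had a RIN of at most 7.7, below the lowest naïve value of 8.9. Counts with the covariate are given for the lists, and where only 1 direction is named, no gene passed in the other. Naïve sample 5 stood apart from the other tumours in B cell and myeloid genes. Its mean over 12 B cell genes was 8.16, against 10.75 in the next lowest naïve dog and 9.95 in the lowest healthy dog. Its mean over 25 mitosis genes was 9.91, beside a naïve median of 9.92. The paper states that all its lymphoma dogs were graded as DLBCL by pathologists, with CD3 and PAX5 as markers. The reason for the low B cell mean of naïve sample 5 was not tested. Counts that move by more than 1.5 times without this sample are given.

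Of the 43035 probesets, 847 (1.97%) were higher and 2108 (4.9%) lower in naïve DLBCL, with a change of more than 2-fold and p under 0.05 in limma after Benjamini-Hochberg adjustment across them all. Without naïve sample 5 these counts were 961 and 2214, and with RIN as a covariate 514 and 797. Probesets with 1 gene symbol covered 15115 genes, each read from its probeset of highest mean. At the adjusted p alone, 2999 genes (19.8%) were higher and 2261 (15%) lower, and these shares are the background for every gene list below. With RIN as a covariate, 333 genes (2.2%) were higher and 333 (2.2%) lower. With only the 4 healthy dogs of RIN 7 or more, 2032 (13.4%) were higher and 1601 (10.6%) lower. The median difference over all genes was 0.07.

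Genes were read in 41 lists of cell types, pathways and complexes, with 724 measured genes in all. Every one of 25 mitosis genes was higher in naïve DLBCL, and 25 of 27 T cell genes were lower. At least 87.5% of the genes of DNA replication, ribosome biogenesis and nucleotide synthesis were higher, and at least 60.0% of those of adipocytes, follicular stroma, complement and dendritic cells were lower. Over all lists, 258 genes were higher and 152 lower, and 78 and 20 with RIN as a covariate.

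**Figure D1:**
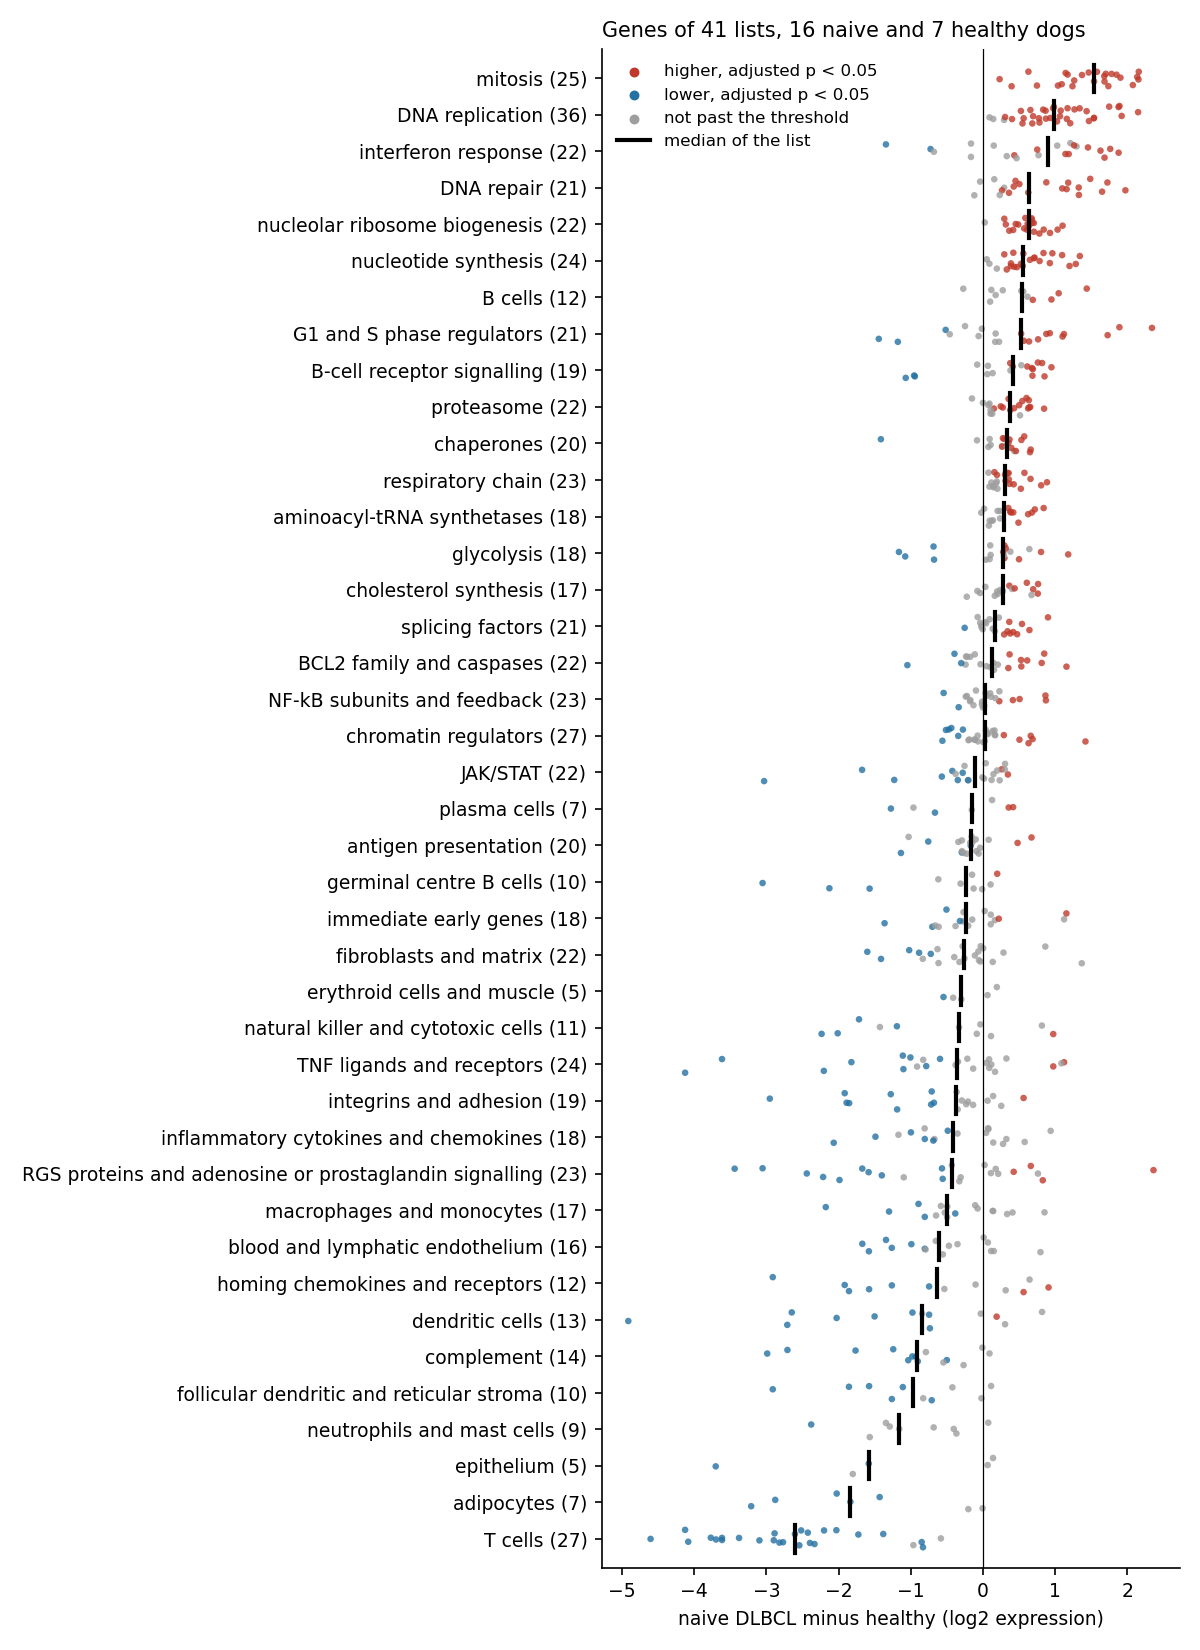
Difference in log2 expression between naïve DLBCL and healthy nodes (x axis) for each gene of 41 lists (y axis, number of measured genes in brackets), in 16 naïve and 7 healthy dogs. Points are genes, red where higher and blue where lower at an adjusted p under 0.05, and black bars are list medians, from 1.54 for mitosis to −2.61 for T cells.

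T cell genes made up the list with the lowest median difference, −2.61. Of 27 measured genes 25 were lower and none higher, against backgrounds of 15% and 19.8%. The mean over the list was 6.63 to 8.95 with a median of 7.46 in naïve dogs and 9.46 to 10.5 with a median of 10.43 in healthy dogs, so that the groups did not overlap. The lowest healthy value was that of healthy dog 1, at 9.46, and the other 6 healthy dogs lay at 10.14 or above. Naïve samples 23 and 5 had the highest T cell means among the tumours, 8.95 and 8.73.

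CTLA4, an inhibitory receptor of activated and regulatory T cells, was 5.36 to 10.88 with a median of 7.74 in naïve dogs and 12.12 to 12.84 with a median of 12.82 in healthy dogs. All 16 tumours lay below all 7 healthy nodes, and the difference was −4.60 ± 0.67 (SE; adjusted p = 1.5e-05), 24.3-fold lower. CD40LG, by which helper T cells license B cells, was 5.73 to 9.20 with a median of 6.80 in naïve dogs against 9.65 to 11.78 with a median of 11.26 in healthy dogs, again without overlap. Its difference was −4.13 ± 0.38 (SE; adjusted p = 5.4e-08), and it remained lower with RIN as a covariate, at −2.77 (adjusted p = 0.048). CD28, the main costimulatory receptor, was 4.94 to 8.92 in naïve dogs and 9.37 to 11.09 in healthy dogs, 13.6-fold lower on average. CD27, also lower without overlap, was 5.76 to 10.35 against 10.82 to 12.21. Under the RIN covariate CTLA4, CD28 and CD27 did not pass (adjusted p = 0.14, 0.17 and 0.22).

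TRAT1, which binds the T cell receptor complex, and LEF1, a nuclear effector of Wnt signals in T cells, were lower by −4.08 and −3.70, with 15 of 16 tumours below all healthy dogs in each. CD3 is the signalling part of the T cell receptor. Its chain CD3E was 7.86 to 12.14 with a median of 9.77 in naïve dogs and 12.28 to 12.79 with a median of 12.55 in healthy dogs, lower by −2.52 ± 0.46 (SE; adjusted p = 0.0002). CD3D and CD3G did not pass the test, with differences of −0.58 (adjusted p = 0.063) and −0.96 (adjusted p = 0.21), and the difference between the chains was not tested. Of the coreceptors, CD8B was lower by −3.38, CD8A by −1.38 and CD4 by −0.83. CD5, LCK, GATA3, CD7 and ICOS were among the other lower genes, with differences of −3.62, −2.89, −3.10, −2.90 and −2.82. With RIN as a covariate 6 of the 27 genes remained lower, and 24 did so with the 4 healthy dogs of RIN 7 or more. Against healthy dog 1 alone the median difference was −1.92.

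Natural killer and cytotoxic genes were mixed. Of 11, 4 were lower and 1 higher, with a median of −0.33, and the lower count was 2 without healthy dog 5 and 1 with RIN as a covariate. EOMES, a transcription factor of cytotoxic cells, was 4.74 to 9.15 with a median of 5.76 in naïve dogs and 8.07 to 8.75 with a median of 8.51 in healthy dogs. It was lower by −2.24 ± 0.47 (SE; adjusted p = 0.00074), and 1 tumour, naïve sample 21, lay above all healthy nodes. NCR3, which triggers killing by natural killer cells, was lower by −1.72 (adjusted p = 5.8e-05) and by −2.55 with RIN as a covariate (adjusted p = 0.018). FASLG, the ligand of the death receptor FAS, was the higher gene, at 6.03 to 8.89 with a median of 7.73 in naïve dogs against 6.47 to 6.99 with a median of 6.69. Its rise did not pass with RIN as a covariate, at 0.37 (adjusted p = 0.82). The granule genes GZMA, GZMB and PRF1 did not pass the test, with differences of 0.81, 0.11 and −0.04. Naïve sample 21 had the highest mean of this list, 9.26, and naïve sample 5 the next, 9.16.

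B cell genes were bright in both groups. Of 12 genes, 4 were higher and none lower, with a median of 0.54, and without naïve sample 5 the higher count was 8. The list mean was above all healthy dogs in 15 of 16 naïve dogs and below all of them in naïve sample 5. POU2AF1, a coactivator of immunoglobulin genes, was 6.78 to 11.30 with a median of 10.09 in naïve dogs and 7.49 to 9.82 with a median of 8.62 in healthy dogs. Its difference was 1.44 ± 0.41 (SE; adjusted p = 0.0086), and 11 tumours lay above all healthy nodes. BLK, a kinase of B cell receptor signalling, was higher by 1.05 (adjusted p = 0.0039), and the adaptor BLNK by 0.95 (adjusted p = 0.023). CD79A, a chain of the B cell receptor, was 10.88 to 13.37 with a median of 13.12 against 11.55 to 12.74 with a median of 12.39, higher by 0.69 (adjusted p = 0.025). This call was lost without healthy dog 2 or without healthy dog 4.

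MS4A1, which encodes CD20, was 8.51 to 13.78 with a median of 13.03 in naïve dogs and 11.65 to 12.65 with a median of 12.12 in healthy dogs. In 13 tumours it lay above all healthy nodes, while naïve sample 5, at 8.51, lay below all of them and the next lowest tumour was at 12.57. The difference of 0.61 did not pass the test (adjusted p = 0.31), and it passed without naïve sample 5. PAX5, the transcription factor by which B cell tumours are recognised, was dim, at 5.66 to 6.34 in naïve and 5.72 to 6.23 in healthy dogs, and did not pass (0.12, adjusted p = 0.26). CD22 differed by 0.17 (adjusted p = 0.74). None of the 12 genes passed with RIN as a covariate, at which the list median was 0.68.

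Germinal centre genes, which mark B cells that divide and mutate within follicles, were counted apart. Of 10 genes, 3 were lower and 1 higher. BCL6, the master repressor of the germinal centre, was 8.44 to 12.56 with a median of 10.59 in naïve dogs and 12.46 to 13.27 with a median of 12.71 in healthy dogs. In 15 of 16 tumours it was below all healthy nodes, and the difference was −2.13 ± 0.35 (SE; adjusted p = 5.5e-05). RGS13, which damps chemokine signals in germinal centre B cells, was 4.16 to 10.71 with a median of 4.75 against 6.35 to 9.28 with a median of 8.54. It was lower by −3.05 (adjusted p = 0.00084), with 14 tumours below all healthy nodes and naïve sample 21 above all of them, at 10.71. MME, which encodes CD10, was lower by −1.57 (adjusted p = 0.0038). The higher gene, SERPINA9, differed by 0.20, and its call was lost without any 1 of healthy dogs 2, 3, 4, 6 and 7. None of these genes passed with RIN as a covariate.

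Plasma cell genes were split. SSR4, part of the translocon for secreted proteins, was higher by 0.42 (adjusted p = 9.8e-05), and SDC1 by 0.35 (adjusted p = 0.0039). XBP1, the transcription factor of secretory cells, was 11.33 to 13.14 with a median of 11.77 in naïve dogs and 12.48 to 12.98 with a median of 12.58 in healthy dogs, lower by −0.67 (adjusted p = 0.01). Naïve sample 21 was the highest at 13.14. JCHAIN, which joins immunoglobulin polymers, differed by −1.28 (adjusted p = 0.047), a call lost without any 1 of the 7 healthy dogs, each of which left 1 lower plasma cell gene. No plasma cell gene passed with RIN as a covariate.

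Genes of B cell receptor signalling rose more often than they fell. Of 19 genes, 10 were higher and 3 lower, with a median of 0.41. Next to BLK and BLNK, VAV2, a guanine nucleotide exchange factor, was 5.5 to 7.28 with a median of 6.40 in naïve dogs and 5.14 to 5.75 with a median of 5.51 in healthy dogs. In 15 tumours it lay above all healthy nodes, and it was higher by 0.85 ± 0.17 (SE; adjusted p = 0.00053). SYK, PIK3AP1, PLCG2 and PTPN6 were higher by 0.76, 0.82, 0.61 and 0.68, and the call of PLCG2 was lost without healthy dog 1, 2 or 3. The lower genes were PIK3CD at −1.07, FOXO1 at −0.94 and MALT1 at −0.95. FOXO1, a transcription factor that B cell receptor signals switch off, was 9.50 to 12.52 in naïve dogs and 12.27 to 12.59 in healthy dogs, with 15 tumours below all healthy nodes. The MALT1 call was lost without any 1 of healthy dogs 2, 3 and 6. None of the 19 genes passed with RIN as a covariate.

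Dendritic cell genes were lower in naïve DLBCL. Of 13 genes, 8 were lower and 1 higher, with a median of −0.84, and 3 remained lower with RIN as a covariate. The list mean was 7.53 to 8.84 in naïve dogs and 8.98 to 9.45 in healthy dogs, without overlap. CCL17, a chemokine of mature dendritic cells that attracts T cells, was 5.0 to 8.62 with a median of 6.88 in naïve dogs and 11.34 to 12.49 with a median of 11.92 in healthy dogs. The groups did not overlap, and the difference was −4.91 ± 0.39 (SE; adjusted p = 7.5e-09), 30.1-fold lower. It was −3.86 with RIN as a covariate (adjusted p = 0.012).

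IL12B, a subunit of the cytokines IL-12 and IL-23, was 5.68 to 6.75 with a median of 6.47 in naïve dogs and 8.19 to 9.57 with a median of 9.21 in healthy dogs. The groups did not overlap, and the difference was −2.71 ± 0.16 (SE; adjusted p = 2.9e-10), and −2.10 with RIN as a covariate (adjusted p = 0.0028). CD80, a ligand of CD28 and CTLA4, was lower by −2.03 (adjusted p = 6.4e-07), also without overlap and also with RIN as a covariate, by −1.82 (adjusted p = 0.042). FLT3, a growth factor receptor of dendritic cell precursors, was 6.17 to 12.92 in naïve dogs and 9.89 to 11.56 in healthy dogs. It was lower in 15 tumours than in any healthy node, by −2.65 on average, and highest in naïve sample 5, at 12.92. CD83, a marker of mature dendritic cells, was lower by −1.50 (adjusted p = 0.00092). The higher gene, ZBTB46, differed by 0.19, and its call was lost without healthy dog 3. Of the 4 genes that did not pass, CD1C and LAMP3 differed by 0.82 and 0.305, with 8 and 12 tumours above all healthy nodes. FSCN1 and XCR1, the last near background, differed by −0.84 and −0.03. With the healthy dogs of RIN 7 or more 5 genes were lower, and without naïve sample 5 the higher count was 2.

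Macrophage and monocyte genes were read apart. Of 17 macrophage and monocyte genes, 5 were lower and none higher, with a median of −0.50. The RIN covariate left 1 lower, and when probesets were averaged 2. The lower count was 2 without healthy dog 1 and 3 without healthy dog 2, 5 or 7. MARCO, a scavenger receptor of sinus macrophages, was 8.26 to 13.01 with a median of 10.46 in naïve dogs and 11.52 to 14.01 with a median of 12.87 in healthy dogs. It was below all healthy nodes in 12 tumours, by −2.18 ± 0.60 (SE; adjusted p = 0.0072). CSF1R, the receptor that macrophages need to survive, was lower by −0.81 (adjusted p = 0.022), and by −1.96 with RIN as a covariate (adjusted p = 0.036), and the call without the covariate was lost without healthy dog 1. Of the 12 genes that did not pass, CD163 and SPI1 differed by 0.85 and 0.33, and CD14 and TYROBP by −0.50 and −0.65. In CD163 2 of 4 probesets were higher, and in SPI1 8 tumours lay above all healthy nodes. Healthy dog 1 had the highest macrophage mean of all healthy dogs, 11.78, and naïve sample 5 the highest of the tumours, 11.45.

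Of 9 neutrophil and mast cell genes, 1 was lower, and 4 were lower without naïve sample 5. That gene was FCER1A, the binding chain of the IgE receptor, at 6.34 to 13.23 with a median of 7.78 in naïve dogs and 10.10 to 11.22 with a median of 10.38 in healthy dogs. It was below all healthy nodes in 15 tumours and highest in naïve sample 5, at 13.23 against 9.60 in the next tumour. FCER1A did not pass with RIN as a covariate (adjusted p = 0.30), where 1 other gene, not called without the covariate, was lower. The median difference of this list was −1.16, but healthy dog 1, at a mean of 10.26, lay above the other healthy dogs.

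**Figure D2:**
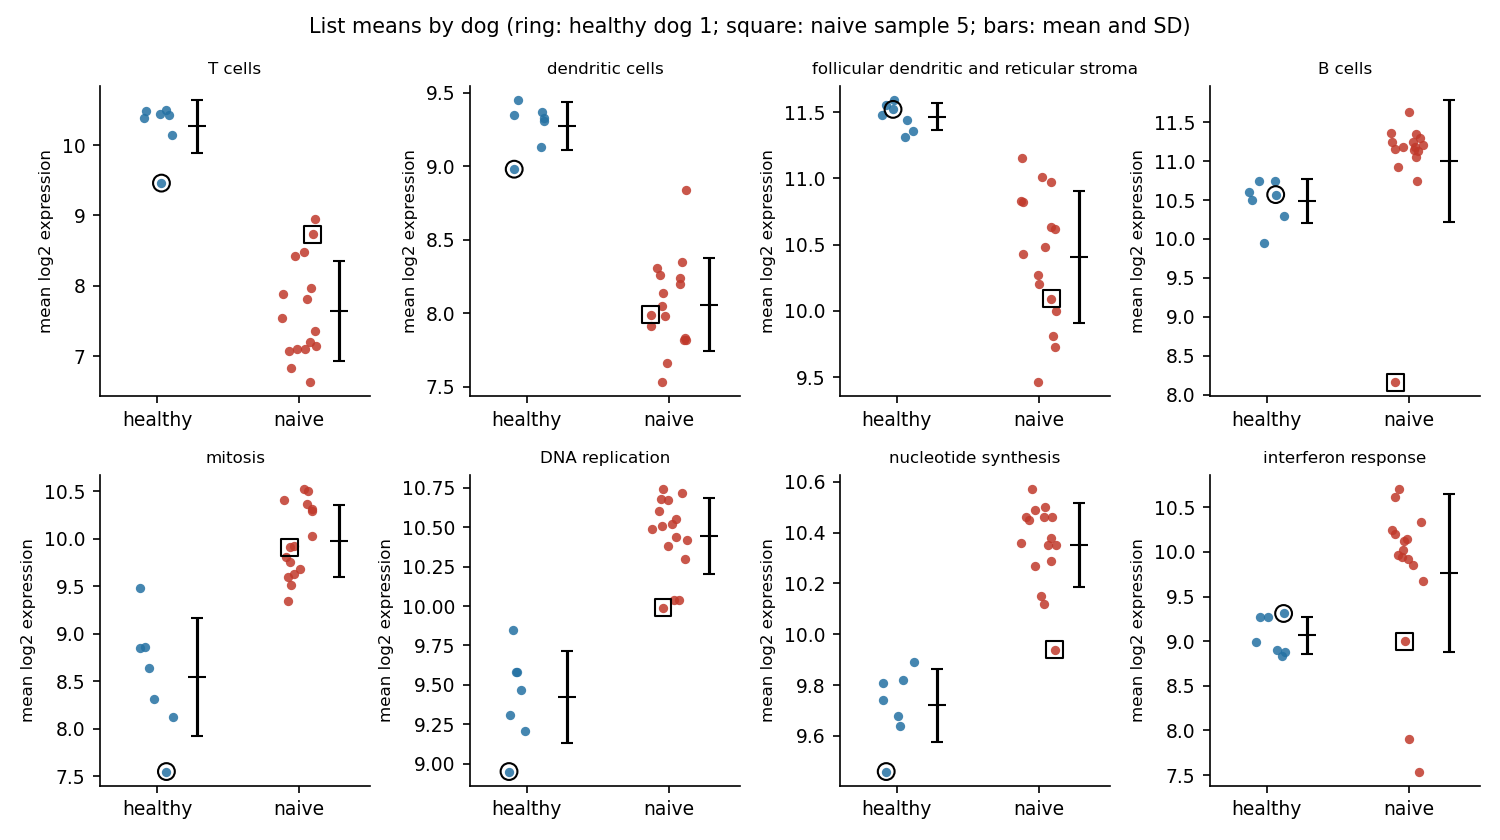
Mean log2 expression of the genes of 8 lists in each healthy (blue, n = 7) and naïve DLBCL (red, n = 16) dog, with group mean and SD as black bars, healthy dog 1 ringed and naïve sample 5 in a square. T cell, dendritic cell and stroma means are lower in every tumour than in any healthy node, replication and nucleotide synthesis means are higher in every tumour, and naïve sample 5 lies far below the others in B cell genes, at 8.16.

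Stromal genes of the follicle and the T zone were lower. Of 10 genes of follicular dendritic and reticular stroma, 6 were lower and none higher, with a median of −0.97, and the list mean of every tumour, at 9.46 to 11.15, lay below that of every healthy node, at 11.31 to 11.59. CCL21, by which stroma draws T cells and dendritic cells into the node, was 9.11 to 13.83 with a median of 12.22 in naïve dogs and 14.64 to 15.01 with a median of 14.95 in healthy dogs. The groups did not overlap, and the difference was −2.91 ± 0.55 (SE; adjusted p = 0.00029). CCL19, the other ligand of the receptor CCR7, was 10.11 to 13.65 against 13.51 to 14.26, lower by −1.86 (adjusted p = 0.0015). CXCL12 was lower by −1.58 (adjusted p = 1.4e-05), and CXCL13, the B cell attractant of the follicle, by −1.26 (adjusted p = 0.023). LTBR, the lymphotoxin receptor on which this stroma depends, was lower by −1.11, with 1 of its 5 probesets lower. CLU, abundant in follicular dendritic cells, differed by −0.42 and did not pass. None passed with RIN as a covariate, at which the list median was −1.12, and against healthy dog 1 alone it was −0.85.

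Receptors and integrins of homing were mixed. ITGB7, which pairs with ITGA4 in gut homing, was 8.80 to 11.96 with a median of 10.44 in naïve dogs and 12.03 to 12.62 with a median of 12.37 in healthy dogs. It was lower without overlap, by −1.92 ± 0.35 (SE; adjusted p = 0.00018). ITGA4 was higher by 0.56 (adjusted p = 0.047), a call lost without any 1 of healthy dogs 1, 2, 4, 5 and 7 and without naïve sample 5. CCR6, a receptor of B cells and some T cells, was higher by 0.91 (adjusted p = 0.018), with 13 tumours above all healthy nodes, and this call was lost without healthy dog 4. CCR7 was lower by −0.75 (adjusted p = 0.027), a call lost without healthy dog 2 or 6. CXCR5 differed by 0.64 and did not pass. In the list of 12 homing genes, 6 were lower and 2 higher, and none with RIN as a covariate. The higher count was 0 without healthy dog 4 and 1 without healthy dog 1, 2, 5 or 7.

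Endothelial genes were lower in part. Of 16, 6 were lower and none higher, with a median of −0.61, and 1 was lower with RIN as a covariate. KDR, the main receptor of vascular endothelial growth factor, was 8.31 to 10.96 with a median of 9.52 in naïve dogs and 10.54 to 12.17 with a median of 11.30 in healthy dogs. It was lower by −1.67 ± 0.30 (SE; adjusted p = 0.00014), with 14 tumours below all healthy nodes. The endothelial kinases TIE1 and TEK were lower by −1.34 and −1.26, each in 15 tumours, and TIE1 remained so with RIN as a covariate, at −1.88 (adjusted p = 0.017). SELE, an adhesion molecule of activated endothelium, was lower by −1.58. PECAM1 and CDH5, which mark all endothelium, differed by −0.35 and 0.07 and did not pass, though 2 of 4 CDH5 probesets were higher. The lymphatic genes LYVE1 and PROX1 differed by −0.80 and −0.47 and did not pass. Without healthy dog 1, whose mean of 9.5 was the highest of the healthy dogs, 1 endothelial gene was higher.

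Fibroblast and matrix genes had a median of −0.27. Of 22, 5 were lower and none higher, and without healthy dog 1 these counts were 3 and 1. With RIN as a covariate 1 was lower. POSTN and ACTA2, genes of activated fibroblasts and smooth muscle, were lower by −1.60 and −1.41, each with 13 tumours below all healthy nodes. PDGFRB, the receptor that marks pericytes, was 5.94 to 7.25 with a median of 6.76 in naïve dogs and 7.16 to 8.14 with a median of 7.54 in healthy dogs, lower by −0.89 (adjusted p = 0.00021). The collagens COL1A1 and COL3A1 differed by −0.06 and −0.11 and did not pass. LUM, a small matrix proteoglycan, was 5.45 to 12.09 with a median of 10.56 in naïve dogs and 6.55 to 11.74 with a median of 8.57 in healthy dogs. Its difference was 1.37 (adjusted p = 0.14), and it turned to −1.61 with RIN as a covariate (adjusted p = 0.61).

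Adipocyte genes had a median of −1.84, with 5 of 7 lower. ADIPOQ, the fat cell hormone adiponectin, was 4.33 to 13.06 with a median of 6.52 in naïve dogs and 8.06 to 12.22 with a median of 9.93 in healthy dogs. It was lower by −3.21 ± 0.88 (SE; adjusted p = 0.0067), and naïve sample 22 lay above all healthy nodes. The same tumour was the highest for CIDEC, LPL and FABP4, at 13.28, 12.17 and 14.41, and its list mean was 11.52 against 9.18 in the next tumour. The lower count was 1 without healthy dog 2, 3 or 7, 3 without healthy dog 1 or 5, and 2 with the healthy dogs of RIN 7 or more, and none passed with RIN as a covariate.

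Of 5 epithelial genes 2 were lower, and the list mean was 4.60 to 6.18 in naïve dogs and 6.46 to 7.37 in healthy dogs without overlap. KLK11, a secreted protease, was 3.91 to 7.29 with a median of 4.64 against 7.51 to 9.55 with a median of 8.81, lower by −3.70 (adjusted p = 4.3e-07). EPCAM was lower by −1.58 (adjusted p = 0.011), and neither passed with RIN as a covariate. KRT18 differed by −1.80 and did not pass. KRT8 and CDH1, with means near background in both groups, differed by 0.14 and 0.06 and did not pass. Of 5 erythroid and muscle genes, DES was lower, by −0.55, and without healthy dog 3 the lower count was 2. DES did not pass with RIN as a covariate (adjusted p = 0.28), where 1 other gene, not called without the covariate, was lower.

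Complement genes, products of macrophages and stroma in the node, were lower in 9 of 14 cases and higher in none, with a median of −0.92, and 1 of 14 was lower with RIN as a covariate. CFP, which stabilises the alternative pathway convertase, was 6.70 to 11.21 with a median of 8.28 in naïve dogs and 11.22 to 11.86 with a median of 11.55 in healthy dogs. All tumours lay below all healthy nodes, by −2.99 ± 0.52 (SE; adjusted p = 0.0001). C7, a part of the membrane attack complex, was lower by −2.71 (adjusted p = 3.1e-06), and by −3.29 with RIN as a covariate (adjusted p = 0.017). CD59, which protects cells from that complex, was lower by −1.77, and C1R, a protease of the classical pathway, by −1.24. CFP, CD59 and C1R did not pass with RIN as a covariate (adjusted p = 0.19, 0.23 and 0.15). The receptor C5AR1 differed by −0.55 and did not pass.

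Integrins and adhesion molecules were lower in 9 of 19 cases and higher in 1, ITGA4. The RIN covariate left 2 lower, and with the healthy dogs of RIN 7 or more 5. CD226, an activating receptor of T and natural killer cells, was 5.96 to 7.93 with a median of 6.49 in naïve dogs and 8.67 to 10.04 with a median of 9.65 in healthy dogs. It was lower without overlap, by −2.95 ± 0.22 (SE; adjusted p = 3e-09), and by −2.28 with RIN as a covariate (adjusted p = 0.0081). ITGA1, a collagen receptor, was 6.68 to 8.83 against 9.09 to 9.98, lower by −1.85 (adjusted p = 8.9e-07). ITGA5, a fibronectin receptor, was lower by −1.89 and highest in naïve sample 5, at 12.37 against 10.31 in the next tumour. ICAM1, the ligand of the leukocyte integrin ITGAL, was lower by −1.19 (adjusted p = 0.001), and ITGAL and ITGB2 differed by −0.35 and −0.21 and did not pass.

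Of 24 TNF ligands and receptors, 9 were lower and 2 higher, and 1 was lower with RIN as a covariate. The list mean was 7.42 to 8.24 in naïve dogs and 8.26 to 8.54 in healthy dogs, without overlap. TNFRSF4, a costimulatory receptor of activated T cells also called OX40, was 5.72 to 7.84 with a median of 6.41 in naïve dogs and 7.82 to 9.37 with a median of 8.64 in healthy dogs. It was lower by −2.21 ± 0.23 (SE; adjusted p = 3.3e-07), with 15 tumours below all healthy nodes. TNFSF11, the ligand RANKL, was lower without overlap by −1.82 (adjusted p = 0.00016). The higher genes were FASLG at 0.97 and TNFRSF13B, a receptor of B cell survival factors, at 1.12. Neither passed with RIN as a covariate (adjusted p = 0.82 and 0.55). TNFRSF13B was 6.13 to 9.01 with a median of 8.03 in naïve dogs and 6.55 to 7.34 with a median of 6.95 in healthy dogs, with 14 tumours above all healthy nodes (adjusted p = 0.0035). CD70, the ligand of CD27, differed by 1.08 and did not pass (adjusted p = 0.079), with 12 tumours above all healthy nodes. CD40 itself differed by 0.08 and did not pass.

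Inflammatory cytokines and chemokines were lower in 6 of 18 cases and higher in none, with 1 lower for the healthy dogs of RIN 7 or more and none with RIN as a covariate. IL15, a cytokine that sustains natural killer and memory T cells, was 6.51 to 8.60 with a median of 7.47 in naïve dogs and 8.84 to 9.35 with a median of 9.02 in healthy dogs. It was lower without overlap by −1.49 ± 0.22 (SE; adjusted p = 2e-05). IL1B, TNF and IL10 differed by 0.28, 0.32 and −0.35 and did not pass. Naïve sample 5 had the highest mean of this list, 9.39 against 8.60 in the next tumour.

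Interferon response genes were high in most tumours and low in a few. Of 22 genes, 10 were higher and 2 lower, with a median of 0.90. The list mean lay above all healthy dogs in 13 tumours and below all of them in 2, at 7.54 in naïve sample 15 and 7.91 in naïve sample 22, against 8.83 to 9.31 in healthy dogs. USP18, which removes the modifier ISG15 from proteins, was 7.82 to 11.91 with a median of 10.86 in naïve dogs and 8.02 to 9.01 with a median of 8.54 in healthy dogs, higher by 1.88 ± 0.50 (SE; adjusted p = 0.0054). It was above all healthy nodes in 13 tumours and below all of them in 3. HERC5, a ligase for the same modifier, was higher by 1.76, and EIF2AK2, the kinase that senses double-stranded RNA, by 1.63. ISG15 was higher by 1.68 (adjusted p = 0.035), a call lost without any 1 of healthy dogs 2, 4, 5, 6 and 7. The lower genes GBP1 and IRF1, both driven by interferon gamma, differed by −1.34 and −0.73, and the lower count was 0 when probesets were averaged and with the healthy dogs of RIN 7 or more. Without healthy dog 7 the higher count was 6, with the healthy dogs of RIN 7 or more it was 3, and with RIN as a covariate none passed.

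Antigen presentation genes were mixed. Of 20 genes, 2 were higher and 4 lower, with a median of −0.17. None passed with RIN as a covariate, and 1 was lower with the healthy dogs of RIN 7 or more. The lower genes were DLA-64, CIITA, TAP1 and B2M, at −1.14, −0.76, −0.295 and −0.17. DLA-64 is a class I gene of the dog leukocyte antigen family. Of its relatives, DLA88 differed by −0.29 and did not pass (adjusted p = 0.16), with 1 of its 2 probesets lower. DLA-79, which is not in this list, was lower by −1.44. Members of this family share sequence and their probesets may not separate them. TAPBP and ERAP1, which load and trim class I peptides, were higher by 0.48 and 0.67. CD74 and DLA-DRA of the class II pathway differed by −0.09 and −0.23 and did not pass.

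Genes of cell division were higher in naïve DLBCL. All 25 mitosis genes were higher, against a background of 19.8%, with a median of 1.54, and 15 of them with RIN as a covariate, at a median of 1.98. The list mean was 9.34 to 10.52 with a median of 9.92 in naïve dogs and 7.55 to 9.48 with a median of 8.64 in healthy dogs, and 15 tumours lay above all healthy nodes. Healthy dog 1 had the lowest mean, 7.55, and against it alone the median difference was 2.74.

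PLK4, the kinase that starts centriole duplication, was 7.56 to 9.36 with a median of 8.27 in naïve dogs and 5.39 to 7.35 with a median of 6.33 in healthy dogs. It was higher without overlap by 2.15 ± 0.24 (SE; adjusted p = 6e-07), and by 2.57 with RIN as a covariate (adjusted p = 0.0094). BUB1B, of the spindle checkpoint, was 9.76 to 11.39 with a median of 10.81 against 6.86 to 9.97 with a median of 8.79, higher by 2.16 (adjusted p = 7.6e-06). TTK, another checkpoint kinase, CENPF, a kinetochore protein, and SGO1, which protects sister chromatid cohesion, were higher without overlap by 2.13, 2.07 and 1.90. CDK1, KIF11, TPX2 and NUSAP1 were higher by 1.70, 1.78, 1.68 and 1.54. PLK1, the kinase of mitotic entry, differed less, by 0.75 (adjusted p = 0.024), with 8 tumours above all healthy nodes, and its call was lost without healthy dog 1, 2 or 3.

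Of 36 DNA replication genes, 33 were higher and none lower, with a median of 0.98, and 19 were higher with RIN as a covariate. The list mean was 9.99 to 10.74 with a median of 10.5 in naïve dogs and 8.95 to 9.85 with a median of 9.47 in healthy dogs, without overlap. DNA2, a nuclease that trims lagging strand fragments, was 6.21 to 8.16 with a median of 7.24 against 4.07 to 5.99 with a median of 4.95, higher by 2.15 ± 0.25 (SE; adjusted p = 9.1e-07). Of the factors that load or activate the replicative helicase, CDC6, ORC1 and CDC45 were higher by 1.92, 1.89 and 1.88. The helicase subunits ran from MCM2 at 1.43 and MCM3 at 1.34 to MCM6 at 0.69 and MCM7 at 0.40, and the call of MCM7 was lost without healthy dog 1. The polymerase genes POLA1 and POLE were higher by 1.53 and 1.21, and POLA2 and POLD1 by 0.52 and 0.55. The exceptions were DBF4, GINS3 and RFC5, which did not pass, at 0.14, 0.29 and 0.09. Of their probesets, 1 of 4 was higher for GINS3 and 1 of 3 for RFC5.

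Regulators of the G1 and S phases moved in both directions. CCNE2, a cyclin of S phase entry, was 10.06 to 11.58 with a median of 10.86 in naïve dogs and 7.31 to 9.70 with a median of 8.32 in healthy dogs. It was higher without overlap by 2.34 ± 0.23 (SE; adjusted p = 1e-07), 5.06-fold. Its relative CCNE1 was higher by 0.64, a call lost without healthy dog 1. E2F8 and E2F7, repressors that are switched on in S phase, were higher by 1.89 and 1.73, and E2F1 and E2F3 by 0.93 and 1.12. CDKN1A, the inhibitor p21, was 9.25 to 12.10 with a median of 10.49 against 11.65 to 12.30 with a median of 11.95, lower by −1.44 (adjusted p = 0.00074). CCND1 was lower by −1.18 (adjusted p = 0.0062), with 15 tumours below all healthy nodes and naïve sample 21 above them. CCND3 differed by 0.17 and did not pass. In the list of 21 genes, 11 were higher and 3 lower, and 7 and 0 with RIN as a covariate.

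DNA repair genes were higher in 16 of 21 cases and lower in none, with a median of 0.63, and 7 were higher with RIN as a covariate. FANCI, of the Fanconi pathway that repairs crosslinks, was 7.53 to 8.69 with a median of 8.18 in naïve dogs and 6.22 to 6.64 with a median of 6.35 in healthy dogs. It was higher without overlap by 1.72 ± 0.12 (SE; adjusted p = 3e-09). EXO1, a nuclease of mismatch and break repair, was higher by 1.97, CHEK1, the checkpoint kinase of stalled forks, by 1.65 and BRCA2 by 1.48, each without overlap. ATM, ATR and NBN differed by −0.12, 0.29 and 0.23 and did not pass, though 1 of 2 NBN probesets was higher.

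Nucleotide synthesis was raised along most of its steps. Of 24 genes, 21 were higher and none lower, with a median of 0.55, and 3 with RIN as a covariate. The list mean was 9.94 to 10.57 in naïve dogs and 9.46 to 9.89 in healthy dogs, without overlap. PPAT, the first committed enzyme of purine synthesis, was 5.45 to 8.07 with a median of 7.02 against 5.26 to 6.03 with a median of 5.62, higher by 1.34 ± 0.24 (SE; adjusted p = 0.00013). PAICS, a later enzyme of the pathway, was higher by 1.20 without overlap. CAD, which starts pyrimidine synthesis, was higher by 0.93, MTHFD2 of mitochondrial folate metabolism by 0.96, and the ribonucleotide reductase subunits RRM2 and RRM1 by 1.09 and 0.43. RRM2 was 11.24 to 12.59 in naïve dogs and 9.29 to 11.94 in healthy dogs, so that 5 tumours lay above all healthy nodes. TYMS, which makes thymidylate, was higher by 0.78.

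Ribosome biogenesis takes place in the nucleolus. Of 22 genes, 21 were higher and none lower, with a median of 0.63, and 5 with RIN as a covariate. DKC1, which modifies ribosomal RNA, was 11.33 to 12.85 with a median of 12.33 in naïve dogs and 10.81 to 11.55 with a median of 11.27 in healthy dogs. It was higher by 1.10 ± 0.15 (SE; adjusted p = 8.1e-06), and by 1.49 with RIN as a covariate (adjusted p = 0.013). The helicase DDX21, the nucleolar protein NPM1 and UTP4 of the small subunit processome were higher by 1.03, 0.93 and 0.84, each in 15 of 16 tumours above all healthy nodes. Naïve sample 5 had the lowest mean of the list, 10.98 against 11.48 in the next tumour.

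Of 18 aminoacyl-tRNA synthetases 9 were higher and none lower, and with the mean of a gene's probesets in place of the brightest probeset the count was 16. A single synthetase, 1 of 18, was higher with RIN as a covariate. IARS1 was 11.22 to 12.10 with a median of 11.89 in naïve dogs and 10.88 to 11.05 with a median of 11.01 in healthy dogs, higher without overlap by 0.84 ± 0.10 (SE; adjusted p = 2e-06). YARS1 was higher by 0.72, also without overlap.

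Energy metabolism was read in 2 lists. Of 23 respiratory chain genes 15 were higher and none lower, with a median of 0.31, and 1 was higher with RIN as a covariate. NDUFB5, of complex I, was 11.14 to 11.96 with a median of 11.43 in naïve dogs and 10.36 to 10.84 with a median of 10.62 in healthy dogs, higher without overlap by 0.89 ± 0.10 (SE; adjusted p = 4.5e-07). CYC1 and CYCS, which carry electrons to the last complex, were higher by 0.80 and 0.66. Of 18 glycolysis genes, 7 were higher and 4 lower, with 11 higher when probesets were averaged and 1 with RIN as a covariate, and isoforms of the same enzymes went opposite ways. PFKP was 10.15 to 11.38 with a median of 10.66 against 9.23 to 9.71 with a median of 9.49, higher by 1.18 (adjusted p = 5e-07), while PFKM was 7.18 to 8.90 with a median of 7.97 against 8.84 to 9.37 with a median of 9.16, lower by −1.17 (adjusted p = 1.9e-05). ENO1 was higher by 0.32 and ENO2 lower by −1.08. The difference between the shares of the respiratory chain and glycolysis lists was not tested. Cholesterol synthesis genes were higher in 6 of 17 cases, led by HSD17B7 and CYP51A1 at 0.76 each, and lower in none, with 2 higher under the covariate.

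Of 22 proteasome genes 14 were higher and none lower, with a median of 0.37, and 4 were higher with RIN as a covariate. PSMA1 was 10.91 to 11.56 with a median of 11.23 in naïve dogs and 10.07 to 10.58 with a median of 10.37 in healthy dogs, higher without overlap by 0.84 ± 0.08 (SE; adjusted p = 1e-07). PSMB3, PSMA2 and PSMA4 were higher by 0.65, 0.64 and 0.63, also without overlap. Of 20 chaperones 12 were higher, among them the mitochondrial HSPD1 and HSPA9 at 0.66 and 0.65, and 1 was lower, the small heat shock protein HSPB1, at −1.42. With the covariate 5 chaperones were higher. Of 21 splicing factors 9 were higher and 1 lower, 16 were higher when probesets were averaged, and 2 with the covariate. SNRPA, of the U1 particle, was higher without overlap by 0.90 ± 0.11 (SE; adjusted p = 1.9e-06), and SF3B1 was the lower gene, at −0.26.

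Of 27 chromatin regulators 6 were higher and 6 lower. When probesets were averaged these counts were 10 and 4, and with RIN as a covariate 4 and 0. The arginine methyltransferase PRMT3 was 8.44 to 9.57 with a median of 9.16 in naïve dogs and 7.26 to 8.28 with a median of 7.70 in healthy dogs, higher without overlap by 1.42 ± 0.14 (SE; adjusted p = 8.5e-08). Its relatives PRMT1 and PRMT5 were higher by 0.69 and 0.66, and all these methyltransferases remained higher with RIN as a covariate, at adjusted p of 0.026, 0.025 and 0.011. EZH2, the histone H3 methyltransferase of germinal centre B cells, was higher by 0.63 (adjusted p = 0.0048), with 9 tumours above all healthy nodes. The DNA methyltransferase DNMT3A was lower by −0.56, and KMT2A, SETD2 and HDAC5 by −0.51, −0.44 and −0.47.

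Genes of cell death were mixed. Of 22 genes of the BCL2 family and caspases, 8 were higher and 3 lower, and 1 and 0 with RIN as a covariate. BCL2, the survival protein, was 8.52 to 10.93 with a median of 9.26 in naïve dogs and 9.20 to 9.91 with a median of 9.71 in healthy dogs, and it did not pass (−0.23, adjusted p = 0.47). In 3 tumours it lay above all healthy nodes and in 7 below all of them, with naïve sample 20 the highest. BCL2L1, which encodes the related BCL-XL, was lower by −1.05 (adjusted p = 0.0001). CASP8 and BAK1, which promote death, were higher without overlap by 0.85 and 0.81. BIRC5, also a protein of mitosis, was higher by 1.16, with 12 tumours above all healthy nodes.

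MYC, a transcription factor of growth, was 9.51 to 12.38 with a median of 11.45 in naïve dogs and 10.07 to 10.47 with a median of 10.19 in healthy dogs. In 13 tumours it lay above all healthy nodes and in naïve sample 5 below them, and it was higher by 1.15 ± 0.29 (SE; adjusted p = 0.0039). It did not pass with RIN as a covariate, at 1.68 (adjusted p = 0.15). Of 18 immediate early genes, 2 were higher, MYC and EGR3 (0.22), and 4 lower, with EGR1 at −1.36. When probesets were averaged 4 were higher and 2 lower, and with RIN as a covariate none passed. The lower count was 1 without healthy dog 1, 2 without healthy dog 3 and 1 for the healthy dogs of RIN 7 or more, and the higher count was 1 without healthy dog 1, 4, 5 or 7.

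The NF-κB system was examined in its own genes and in targets that the study tabulated from these arrays, so that the targets are not independent evidence of their direction. Of 23 genes of its subunits, sensors and feedback, 5 were higher and 2 lower, and the higher count was 3 without healthy dog 2. None passed with RIN as a covariate. MYD88, the adaptor of Toll-like receptors, was 10.02 to 11.67 with a median of 10.84 in naïve dogs and 9.76 to 10.04 with a median of 9.89 in healthy dogs, higher by 0.87 ± 0.16 (SE; adjusted p = 0.00025). TLR9, a receptor for DNA that signals through it, was above all healthy nodes in 15 tumours, by 0.86 (adjusted p = 0.00057). RELB, a subunit of the alternative pathway, was lower by −0.55 (adjusted p = 0.0018), the inhibitor NFKBIA by −0.34, and NFKB1, NFKB2 and RELA differed by −0.18, 0.11 and −0.00 and did not pass.

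Of the tabulated targets that were measured, BUB1B, TPMT and PRKCD were higher, the last pair by 0.84 and 0.78. The kinase PRKCD was 10.57 to 12.34 in naïve dogs and 10.60 to 11.27 in healthy dogs, with 14 tumours above all healthy nodes. IL2, the growth factor of T cells, was 3.65 to 6.97 with a median of 4.67 in naïve dogs, close to background, and 6.53 to 9.71 with a median of 8.57 in healthy dogs, lower by −3.72 (adjusted p = 2.3e-07). PTPN3 was lower without overlap by −1.36, with 1 of its 3 probesets lower, and RGS1 by −2.21. CD40LG, IL12B, CD83, CXCL13, ICAM1, EGR1 and DLA-79, described above, were the other lower targets. CXCL8, the chemokine that attracts neutrophils, was 3.97 to 11.72 in naïve dogs and 8.15 to 9.49 in healthy dogs, and its call at −2.07 (adjusted p = 0.045) was lost without any 1 of the 7 healthy dogs. CD36 differed by −1.34 and did not pass (adjusted p = 0.22).

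In the JAK/STAT pathway, 8 of 22 genes were lower and 2 higher, and the higher count was 1 without healthy dog 1 and 4 when probesets were averaged. The lower count was 1 with RIN as a covariate. IL2RB, a receptor chain for IL-2 and IL-15, was 6.26 to 8.54 with a median of 7.10 in naïve dogs and 9.23 to 10.60 with a median of 10.30 in healthy dogs. It was lower without overlap by −3.03 ± 0.29 (SE; adjusted p = 6.7e-08), and by −2.31 with RIN as a covariate (adjusted p = 0.035). STAT4, which IL-12 activates, was lower without overlap by −1.68, and the receptor IL21R by −1.23 in 15 tumours. JAK2 and SOCS3 differed by −0.26 and 0.12 and did not pass.

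Genes of G protein regulation and of adenosine and prostaglandin signalling held the largest rise among genes whose groups did not overlap, that of ADORA2B. ADORA2B, an adenosine receptor, was 7.20 to 9.80 with a median of 9.14 in naïve dogs and 6.26 to 6.91 with a median of 6.55 in healthy dogs. It was higher without overlap by 2.36 ± 0.28 (SE; adjusted p = 9.9e-07), 5.13-fold, and by 2.46 with RIN as a covariate (adjusted p = 0.025). ADORA2A, its relative on T cells, was higher by 0.66, and ADK, which removes adenosine, by 0.83. DPP4, also named CD26, was 6.79 to 8.96 with a median of 8.10 against 10.10 to 10.86 with a median of 10.55, lower without overlap by −2.44 (adjusted p = 1.4e-07), and by −2.58 with RIN as a covariate (adjusted p = 0.011). PTGDR, a prostaglandin D2 receptor, was 5.47 to 8.53 with a median of 6.60 against 8.75 to 10.64 with a median of 10.04, lower without overlap by −3.44 (adjusted p = 2.4e-08). PTGS1, a cyclooxygenase, was lower by −1.99 and PTGES by −1.40. In this list of 23 genes 4 were higher and 10 lower, and 1 and 1 with RIN as a covariate.

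Over all 15115 genes, all 16 tumours lay above all 7 healthy nodes in 265 genes (1.75%) and below them in 300 (1.98%), and 76 (0.503%) and 216 (1.43%) of these also passed both thresholds. The 12 largest rises among them were ADORA2B, CCNE2, CDCA7, PLK4, DNA2, TTK, CENPF, CDCA5, EXO1, MND1, SGO1 and E2F8. CDCA7 and CDCA5, both tied to division, were higher by 2.15 and 2.07, and MND1, known from meiotic recombination, by 1.92. All of these rises except that of SGO1 (adjusted p = 0.07) also passed with RIN as a covariate.

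The 12 largest falls were CCL17, CTLA4, CD52, CSTA, LOC609053, CD40LG, LOC486377, STMN2, CD28, USP9X, KLK11 and CD27. CD52, a small surface glycoprotein of lymphocytes, was 6.30 to 10.54 with a median of 7.27 in naïve dogs and 11.22 to 12.18 with a median of 11.85 in healthy dogs. It was lower by −4.33 ± 0.44 (SE; adjusted p = 1.6e-07), 20.1-fold, and by −3.46 with RIN as a covariate (adjusted p = 0.041). CSTA, an inhibitor of cysteine proteases, was lower by −4.28, and STMN2, a tubulin regulator known from neurons, by −3.78. Of the 4 probesets of USP9X 1 was lower, so that the value of −3.71 stands for that probeset only. With RIN as a covariate 5 of the 12 falls passed, CCL17, CD52, CD40LG, LOC486377 and USP9X, and the other 7 did not, at adjusted p between 0.097 and 0.22.

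**Figure D3:**
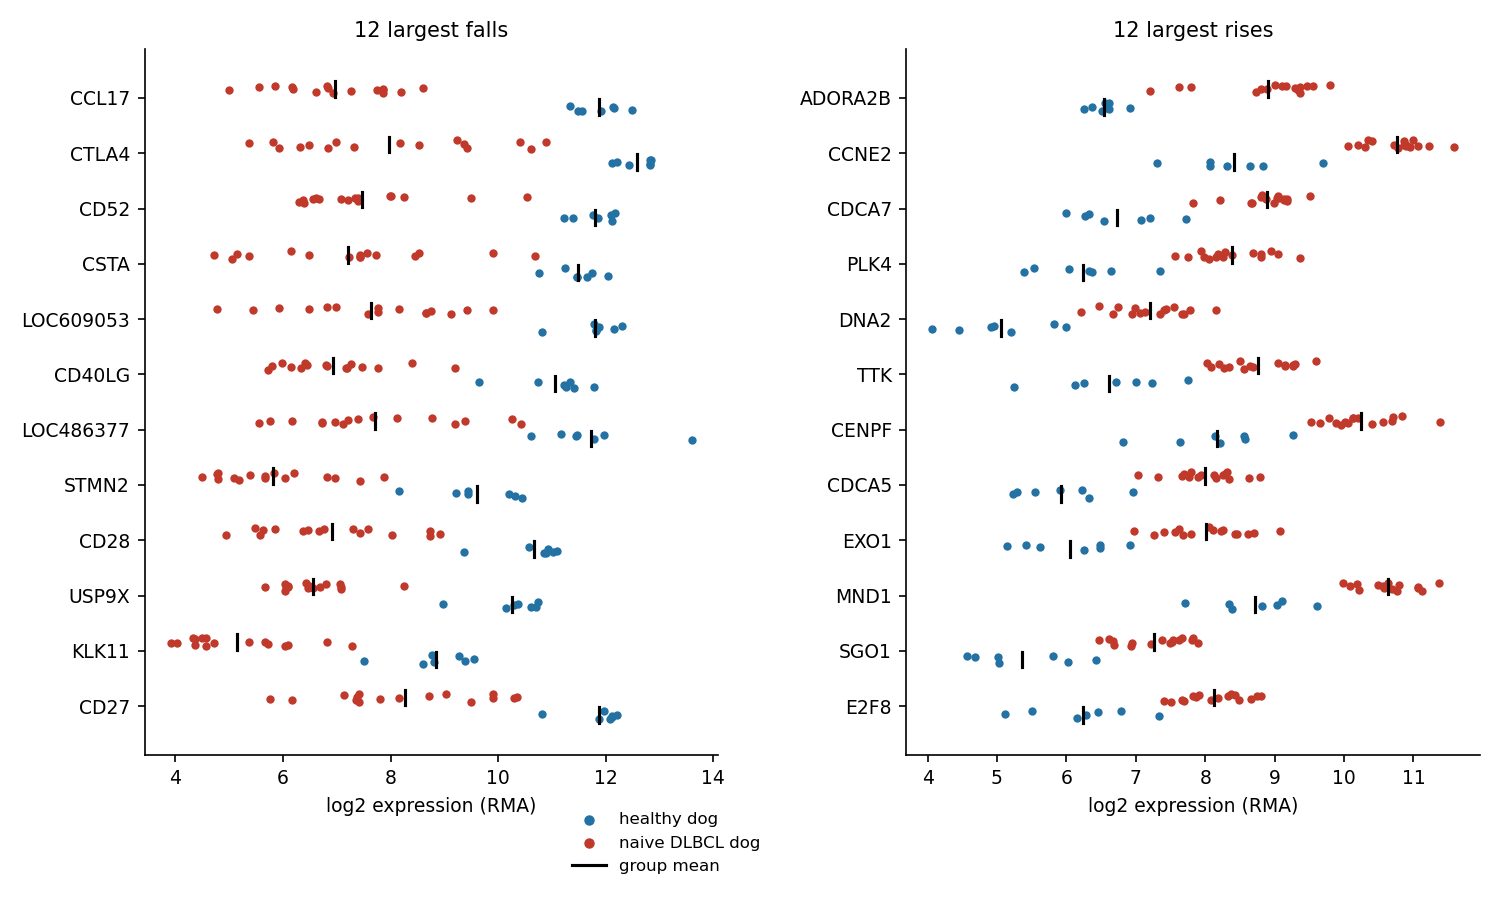
Log2 expression (x axis) of the 12 genes with the largest falls (left) and the 12 with the largest rises (right) among genes whose groups did not overlap, in 7 healthy (blue) and 16 naïve DLBCL (red) dogs, with group means as black ticks. Falls reach −4.91 (CCL17) and rises 2.36 (ADORA2B), and the tumours spread more widely than the healthy nodes in most of the genes that fell.

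Healthy dog 1 had a RIN in the naïve range, though not the 3' to 5' differences of ACTB, and the same genes were set against it. It is 1 animal and gives no test. Of the 317 genes (2.1%) that were higher by both thresholds, all 317 had a naïve mean above healthy dog 1, and in 221 that dog lay below all 16 tumours. Of the 807 genes (5.34%) that were lower, 803 had a naïve mean below healthy dog 1, and in 491 that dog lay above all tumours. Since healthy dog 1 is 1 of the 7 dogs behind those calls, these counts are not independent of them.

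**Figure D4:**
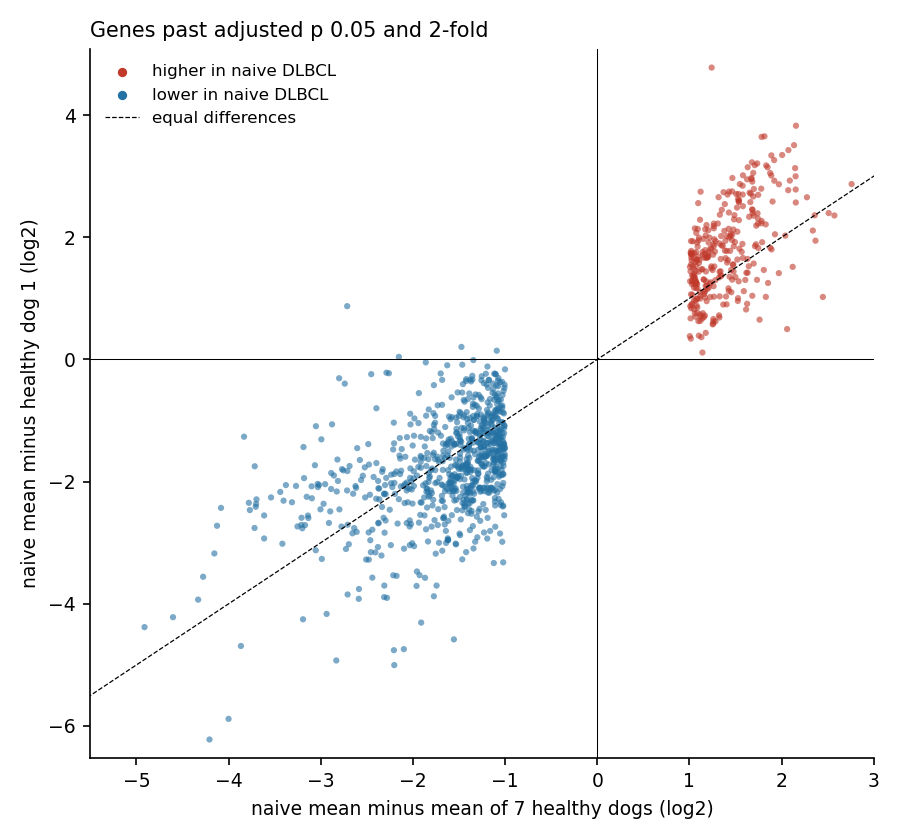
Mean log2 expression of 16 naïve dogs minus the mean of 7 healthy dogs (x axis) and minus healthy dog 1 alone (y axis), for the 317 genes higher (red) and 807 genes lower (blue) by both thresholds, with equal differences as a dashed line. All of the red and 803 of the blue genes keep their direction against this dog.

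The naïve dogs also differed among themselves. CNTN5, a neuronal adhesion protein, had the largest SD, 3.32, at 3.82 to 12.21 in naïve dogs against 3.65 to 7.43 in healthy dogs. It was near background in part of the tumours, and naïve samples 2, 6, 11, 20, 22 and 23 lay above all healthy nodes, at 8.11 or more. GTSF1, a germline gene of small RNA silencing, lay above all healthy nodes in 9 tumours and reached 12.86, while healthy dogs lay between 4.84 and 5.42. LRP1B, a large lipoprotein receptor, was 3.62 to 10.59 against 3.64 to 4.17, near background, in healthy dogs, above all healthy nodes in 12 tumours. Its difference of 2.51 passed (adjusted p = 0.034), and the call was lost without any 1 of healthy dogs 1, 2, 3, 5, 6 and 7. CYP3A26 went the other way, at 2.82 to 11.34 in naïve dogs and 7.07 to 10.42 in healthy dogs, below all healthy nodes in 11 tumours and above them in 2. CCDC178 was at 5.44 or more in 8 tumours and at 2.90 to 4.28, near background, in healthy dogs, and its difference of 2.21 did not pass (adjusted p = 0.056).

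**Figure D5:**
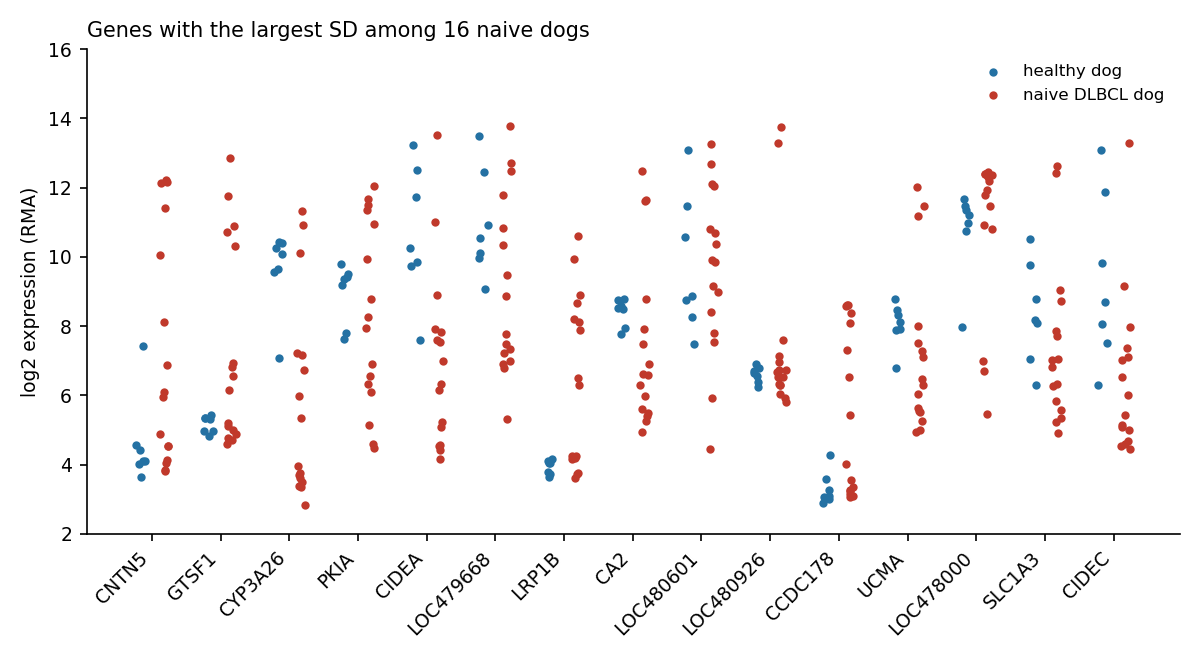
Log2 expression (y axis) of the 15 genes with the largest SD among 16 naïve DLBCL dogs (red), beside 7 healthy dogs (blue). In GTSF1, LRP1B and CCDC178 the healthy dogs stay low while 9, 12 and 8 tumours lie above all of them. In CNTN5 6 tumours lie above all healthy dogs, of which healthy dog 1 is at 7.43 and the others at 4.57 or below.

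Across the 16 naïve dogs, the T cell mean was set against 3 other list means. With the B cell mean, Pearson's r was −0.50 (permutation p = 0.027, adjusted p = 0.081) and Spearman's rho −0.46 (permutation p = 0.078, adjusted p = 0.23), and r was −0.40 without naïve samples 23 and 5. With the mitosis mean r was −0.21 (permutation p = 0.42, adjusted p = 0.63) and rho −0.10 (permutation p = 0.71, adjusted p = 0.71), and r was 0.05 without those samples. With fibroblast and matrix genes r was 0.12 (permutation p = 0.65, adjusted p = 0.65) and rho 0.22 (permutation p = 0.41, adjusted p = 0.61), and r was −0.29 without them. None of the 3 relations passed after adjustment.

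Sex separated a few probesets among the naïve dogs. By limma over all probesets, 7 (0.0163%) were higher in the 8 females and 1 (0.00232%) in the 8 males. The last, annotated to EIF2S3, a translation initiation factor with genes on both sex chromosomes, was 2.39 to 3.38 in females and 8.39 to 12.22 in males, so that the labels of sex matched in every naïve dog. In the healthy dogs, whose labels give no sex, EIF2S3 was 2.71 to 12.16 with a median of 3.17, a range that spans both. SERPING1, the inhibitor of the first complement component, was higher in females by 1.65 to 1.67 in 4 probesets (adjusted p = 0.016 to 0.028). One of these probesets was 10.56 to 11.47 in females and 8.57 to 10.36 in males, without overlap, against 10.7 to 12.0 in healthy dogs of unknown sex. PLA2G7, a lipase of macrophages, was higher in females by 2.09 and PDE10A, a phosphodiesterase, by 0.97. An unadjusted p under 0.05 was found in 4450 probesets (10.3%). For age no probeset passed, by limma over the 16 naïve dogs, and 2138 (4.97%) had an unadjusted p under 0.05.

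Between the 16 naïve and 7 relapsed arrays no probeset passed by limma at an adjusted p under 0.05, and 2057 (4.78%) had an unadjusted p under 0.05. One dog gave an array to each of these groups. The median difference between naïve and relapsed DLBCL was −0.07 over the T cell list, 0.33 over mitosis, 0.23 over DNA replication and −0.31 over B cells. Relapsed means of the genes with the largest changes lay on the naïve side of the healthy nodes, such as 7.19 for CCL17 against 6.96 in naïve and 11.87 in healthy dogs, and 9.12 for ADORA2B against 8.91 and 6.55. Both disease groups were set against the same healthy dogs, so these values are given side by side only.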

How the data were processed

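Lymph node RNA was amplified and hybridised to 1-colour Affymetrix Canine Genome 2.0 arrays. The authors deposited log2 values per probeset, made by RMA in Affymetrix Expression Console, and used Partek for their own tests. RMA forces arrays to 1 distribution, so a shift shared by most genes cannot be seen. The number of dogs limits the precision.

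The arrays of a dog were averaged, and limma 3.58.1 (R 4.3.3) compared 16 naïve with 7 healthy dogs, with Benjamini-Hochberg adjustment over all 43035 probesets. This step was tested on simulated data with 50 changed probesets per size: 66, 84, 96 and 100% were recovered at log2 changes of 0.5, 1, 2 and 3, with 9 false calls. The simulated noise was independent between probesets, had the same SD in both groups and held no RIN difference. The real groups differed in RIN and, in many genes, in SD, so these rates need not hold for them. Of the probesets 29264 had 1 gene symbol, 439 several and 13332 none, from the platform annotation. For each gene the probeset with the highest mean was taken. Permutation tests ran in scipy 1.17.1 under Python 3.11.15, with tables in pandas 2.3.3 and numpy 2.4.6 and figures in matplotlib 3.10.9.

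The comparison, the gene lists and the tests were chosen with earlier results of these data known. The genes to be named were the 12 largest rises and falls without overlap, up to 4 called members per list with the largest difference, a few defining genes and the NF-κB targets. The other members named in the text were chosen after their values were seen. Every column of sample values was used, leaving 0 unused. Alternatives were RIN as a covariate, 26 arrays as separate samples, the methods' ANOVA on them, the dog as random block, recentring, renewed quantile normalization, a filter on dim probesets, a fit of 3 groups, single dogs left out, healthy dogs of RIN 7 or more, probeset means, and the sample number as a block. RNA was extracted in batches whose members were not known here, so that no batch was tested.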

Additional observations from a re-analysis of the deposited data

Results flagged for a closer look

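In 8 of 41 list means and 31 of 248 named genes, 1 of the 7 healthy dogs lay farther from the others than a Dixon test at the 95% level allows, and chance gives about 1 in 20 such results per group. All 8 list means were those of healthy dog 1, the healthy dog with the highest RIN, as were 20 of the genes. No explanation was tested.

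Among list means, healthy dog 1 stood at 9.46 for T cells, 10.26 for neutrophils and mast cells, 7.37 for epithelium, 10.82 for nucleolar ribosome biogenesis, 11.14 for aminoacyl-tRNA synthetases, 12.09 for splicing factors, 10.25 for chromatin regulators and 8.84 for immediate early genes. Healthy dog 1 had log2 values of 9.37 for CD28, 10.82 for CD27, 8.96 for TRAT1, 11.19 for CD3G, 9.62 for CD8B, 10.74 for LCK and 10.04 for GZMA. Healthy dog 1 had log2 values of 13.51 for CCL19, 12.66 for PECAM1, 9.11 for IL10, 10.43 for MCM7, 8.05 for CAD and 10.80 for PRMT5. Healthy dog 1 had log2 values of 9.23 for IL2RB, 7.58 for IL21R, 8.75 for PTGDR, 10.82 for LOC609053, 8.97 for USP9X, 7.43 for CNTN5 and 7.07 for CYP3A26. The log2 value of healthy dog 4 was 9.64 for CD22, 11.56 for FLT3, 10.60 for ITGA4, 9.18 for ITGAL, 7.15 for ERAP1, 14.58 for CD74 and 14.02 for DLA-DRA. The log2 value of healthy dog 4 was 12.52 for PSMA4, 9.57 for BCL2L1 and 11.14 for ADORA2A. The log2 value of healthy dog 7 was 9.24 for CCND1.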

How the results depend on the processing

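Adding RIN to the fit left 514 higher and 797 lower probesets, and over the gene lists 78 genes were higher and 20 lower, against 847, 2108, 258 and 152 without it. RIN lay almost apart in the groups, so that the covariate and the disease cannot be fully told apart. Under every other planned setting the probeset counts stayed within 1.5 times. Leaving out single healthy dogs gave 785 to 903 probesets higher and 1958 to 2156 lower, and 238 to 250 list genes higher and 130 to 146 lower. Settings added after seeing the data were the list counts with healthy dogs of RIN 7 or more (221 and 105) and without naïve sample 5 (275 and 167).

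Sample numbers occur in both groups, but nothing ties them to a shared source. With the number as a replicate block, over the 12 arrays with shared numbers, whose 6 healthy arrays stood for 5 dogs, 898 probesets were higher and 2260 lower, and 920 and 2365 in those arrays without the block, a fit added after seeing the data. Over 6 pairs the correlation of deviations was −0.10 to 0.16, and 1 of 6 samples correlated best with its own number.

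Among the genes named in the report, the directions that turned were all of genes that did not pass the test. Of the other called members of the lists, SHMT1 (−0.05), HDAC1 (0.06) and BIRC3 (0.23) turned with RIN as a covariate. With RIN as a covariate they were GZMA at −0.99, LUM at −1.61, GINS3 at −0.80, ATM at 0.22 and NFKB1 at 0.01. In the 12 arrays, with or without the block, they were CD22 at −0.27, COL1A1 at 0.35, COL3A1 at 0.25, ATM at 0.03 and RELA at 0.04. Without single healthy dogs CD22 ran from −0.03 to 0.24, GZMB from −0.04 to 0.23, COL1A1 from −0.13 to 0.02, COL3A1 from −0.21 to 0.05 and RELA from −0.07 to 0.04. GZMB was −0.17 without naïve sample 5. RELA was 0.08 with healthy dogs of RIN 7 or more, 0.02 with recentred arrays and 0.03 after renewed quantile normalization. LYVE1 and ITGAL passed without healthy dog 4, and CXCR5, JAK2, ATR, MS4A1 and CCDC178 without naïve sample 5. Between naïve and relapsed DLBCL no probeset passed in limma under any of 3 settings, and 2057 had an unadjusted p under 0.05.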
